A study of Homo sapiens with 6 samples.

Results

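The genes of the COPII and COPI vesicle coats, with the receptors, tethers and fusion proteins that work with them, were compared in ARPE-19 cells after 72 h in high glucose and after 72 h in normal glucose. ARPE-19 is an established human line of the retinal pigment epithelium, the cell layer behind the photoreceptors. Both groups carry the wild-type genotype and differ in the medium alone, as far as the labels say, with 3 libraries in high glucose and 3 in normal glucose. The labels give no glucose concentration and do not state whether the libraries came from separate cultures, so a p-value here reflects how much these libraries differ among themselves, and that may be technical variation. The 44 genes were chosen by function, by matching their symbols to the 60835 loci of the deposited table. All 44 were found, each at 1 locus, and all 44 had enough counts to be tested among 25025 loci. In the table's own gene ontology annotation, 40 of the 44 carry a term for transport from endoplasmic reticulum to Golgi and 21 a term for the retrograde route.

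Newly made secretory and membrane proteins leave the endoplasmic reticulum in vesicles with a COPII coat and reach the Golgi. Vesicles with a COPI coat carry escaped resident proteins and recycled machinery back, and they also work between Golgi cisternae. When unfolded proteins build up in the endoplasmic reticulum, the unfolded protein response raises the transcription of chaperones and of part of this transport machinery, with the factors XBP1, ATF6 and ATF4 among its effectors.

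The libraries held 81616741 to 87748820 counts. Single counts may not be single fragments, since a count of 4 was more frequent than 3 or 5. With counts divided by 4, 3 of the 44 genes rose and 5 fell, the same 8 as with the counts as deposited. Variation between libraries of a group was 27.2% in high glucose and 41.0% in normal glucose (biological coefficient of variation, edgeR). The third normal glucose library stood apart from the other 2 of its group on the second principal component, at 107 against -44.0 and -35.2. That component held 18.0% of the variance. Values without this library are therefore given for the members whose call then changed, and for some other results. Of 19 retinal pigment epithelium markers, 15 passed the count filter. The summed level of all 19 was 3626 to 4017 CPM (counts scaled to library size) in high glucose and 1227 to 2196 CPM in normal glucose. The 15 did not move as a whole: 4 rose and 2 fell at an edgeR adjusted p under 0.05, with a median log2 change, high minus normal glucose, of -0.05 and a range of -2.20 to 1.88. RPE65, TTR, TYR and DCT, which mark the mature epithelium, were below the filter. The 12 fibroblast markers all passed and summed to 277 to 285 CPM in high glucose and 226 to 330 CPM in normal glucose, but 1 of them rose and 2 fell, 5 differed by 1 or more on the log2 scale, and their median was -0.63 (range -2.83 to 0.68). Of 7 blood cell markers 3 passed, with AIF1 and CD3E at 0, and the list summed to 431 to 551 CPM in high glucose and 336 to 468 CPM in normal glucose. None of these 3 had an edgeR adjusted p under 0.05, and their median log2 change was -0.65 (range -1.85 to 0.28), opposite in sign to the sums. Of 6 endothelial markers 3 passed, and the list summed to 3.33 to 4.75 CPM in high glucose and 10.8 to 16.9 CPM in normal glucose, with 1 that fell and a median of -2.40. In such bulk RNA, fewer cells of a type and less RNA per cell cannot be told apart, and the part of these marker differences in the results was not tested.

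The vesicle traffic genes changed little, and in both directions. At an adjusted p under 0.05 (edgeR quasi-likelihood test, Benjamini-Hochberg over all tested loci; such genes are referred to as called), 3 of the 44 rose in high glucose and 5 fell. The subunits COPZ2 and COPG2 of the COPI coat and GBF1, the exchange factor that starts its recruitment, rose. TMED2, TMED3, LMAN1, STX5 and PREB, which serve cargo selection, vesicle fusion or the start of the COPII coat, fell. These 8 genes are 18.2% of the members, against 19.6% of all tested loci and 25.5% of tested loci with a protein-coding transcript. Among 9520 protein-coding loci at least as abundant as the lowest member, at 9.52 CPM, 28.5% were called. The median over the members was 153 CPM, so these loci are not matched to the members in abundance. By direction, the calls were 9.75% higher and 9.86% lower of all loci, 13.1% higher and 12.4% lower of protein-coding loci, and 13.3% higher and 15.1% lower of the abundant ones. Before adjustment, 12 members had a p under 0.05. Without any 1 of the high glucose libraries, none rose and 1 fell, in each case TMED2. Calls over all loci dropped too, from 2439 higher and 2467 lower to 819 and 812, 730 and 691, and 785 and 722. Leaving out a normal glucose library gave 2 that rose and 3 that fell without the first, 2 and 4 without the second, and 7 and 8 without the third. The same omissions gave 1443 and 1403, 1439 and 1288, and 3932 and 3683 over all loci.

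With all 6 libraries, no member differed by 1 or more on the log2 scale, the size of a 2-fold change. That size was reached by 22.9% of all loci, 16.6% of protein-coding loci and 9.42% of the abundant ones. Without the third normal glucose library TMED2 had -1.02 (edgeR adjusted p 0.00121) and BET1 1.10 (edgeR adjusted p 0.212, not called). The log2 changes, high minus normal glucose, ran from -0.93 to 0.83 with a median of 0.02, and 22 were positive and 22 negative. Their median size was 0.21, against 0.41 for protein-coding loci and 0.34 for those at least as abundant as the lowest member. The latter loci reach down to 9.52 CPM and are not matched to the members in abundance. The 95% interval of the change lay within 1 log2 unit of 0 in both directions for 39 members, and for 33 of the 36 that were not called. The 3 exceptions among those not called were COPZ1, BET1 and GOSR2. The 3 high glucose libraries lay entirely above or entirely below the 3 normal glucose libraries for 17 members (38.6%), against 42.3% of all loci, 49.5% of protein-coding loci and 52.4% of the abundant ones. The summed level of the members was 6817, 7038 and 7176 CPM in the high glucose libraries and 7180.4, 6606 and 7008 CPM in the normal glucose libraries. These sums overlapped between the groups.

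**Figure D1:**
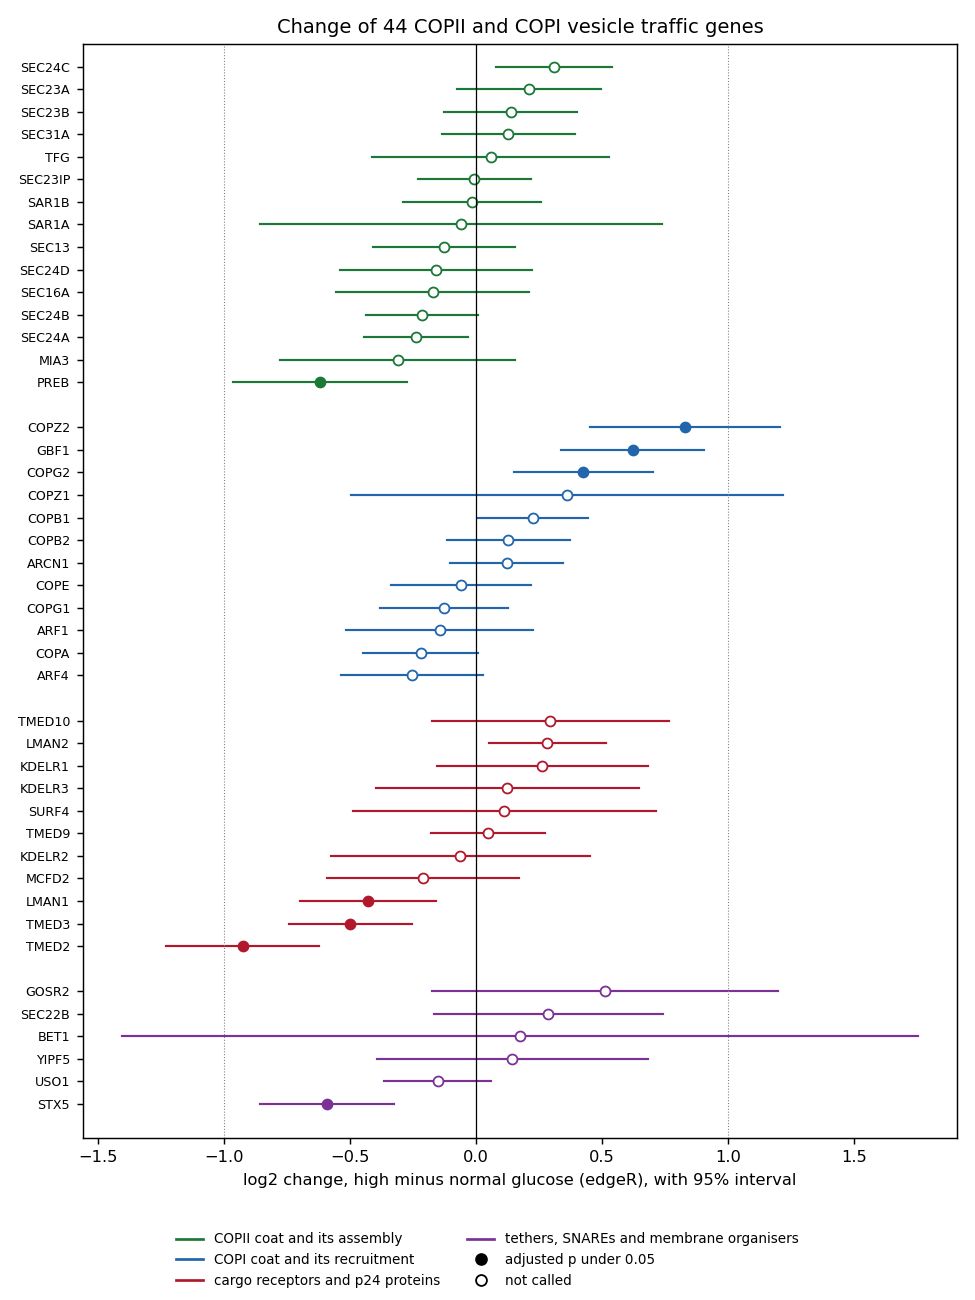
Log2 change, high minus normal glucose, of the 44 members by role, with points for the edgeR estimate and bars for its 95% interval and dotted lines at 1 and -1; filled points are the 8 members with an adjusted p under 0.05. Estimates lie on both sides of 0, between -0.93 for TMED2 and 0.83 for COPZ2.

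The genes of the unfolded protein response showed a larger difference in the same libraries. Of 26 such genes, none rose and 21 fell in high glucose (80.8%, against 12.4% of protein-coding loci that fell), with a median log2 change of -1.78. HSPA5, or BiP, which holds unfolded proteins in that compartment, had 573, 599.9 and 617 CPM in the high glucose libraries, against 7847, 8046 and 1623 CPM in the normal glucose libraries. Its level in the third normal glucose library was far below the other 2 of the group, yet above all 3 high glucose libraries. The fitted log2 change of HSPA5 was -3.29 (SE 0.56), with an edgeR adjusted p of 0.0108 (8.16e-10 to 0.0549 over the 15 alternatives, and 0.0523, 0.0549 and 0.0546 without the first, second and last high glucose library). Summed over the list, the response genes had 5534, 5690.1 and 5657 CPM in the high glucose libraries and 24602, 27346 and 9110 CPM in the normal glucose libraries. The count moved with the libraries: without the first, second or last high glucose library 4, 2 and 2 fell, and without the first or second normal glucose library 10 and 12 fell. Over all loci, 2467 fell with all libraries and 812, 691 and 722 without these high glucose libraries. Without the first or second normal glucose library 1403 and 1288 of all loci fell. Without the third normal glucose library 26 of the 26 fell, with a median of -2.10, and 18.3% of protein-coding loci fell. How the vesicle traffic genes relate to this list was not tested.

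**Figure D2:**
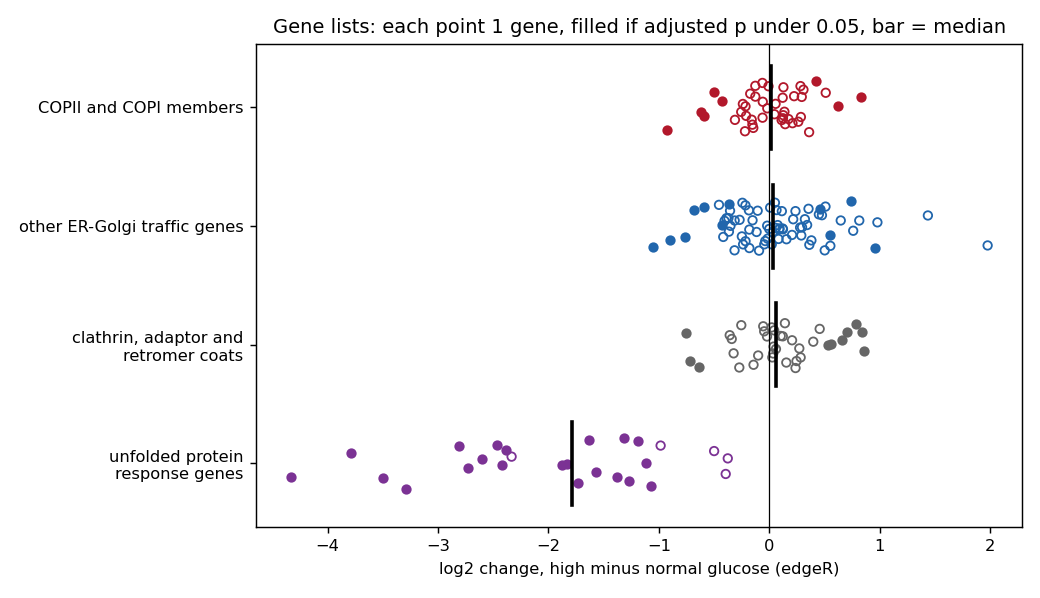
Log2 changes, high minus normal glucose, of each gene in 4 lists, 1 point per gene, filled where the adjusted p was under 0.05, with a bar at each list's median. The vesicle traffic members sit around a median of 0.02, and the unfolded protein response genes around -1.78.

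Promoter sequence was read to see which of the known response elements stand near the members' starts. RefSeq promoters (GRCh38.p14, from 250 bases before to 50 bases after a start) were given for 39 of the 44 members, with 53 promoters between them. SEC24D, ARF4, KDELR2, TMED9 and USO1 had none in the table. The 7 letters TGACGTG, the core of the unfolded protein response element (UPRE) that XBP1 is known to bind, were searched on both strands. They occurred in 13 of the 39 members (33.3%), against 654 of 27305 genes (2.40%) and 692 of 35116 promoters (1.97%). By role they occurred in 5 of 14 COPII members, 6 of 11 COPI members, 1 of 9 cargo receptors and 1 of 5 tethers and fusion proteins. The share was 6.45% (4 of 62) in other genes of endoplasmic reticulum and Golgi transport, 0 of 31 in clathrin, adaptor and retromer genes, and 1 of 23 in the unfolded protein response genes. A match is a description of letters, not of binding.

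The windows below are those of the 13 members that hold the core. The other 26 members with a promoter lack it, as do most response genes. Each is read 5′ to 3′ on the gene's strand, with capitals for the core or for its reverse complement CACGTCA, and 10 bases on each side. The interval is that of the window, and the last value is the position of the first capital relative to the transcript start.
SEC13 (chr3:10321239-10321265, minus strand, -143): tctggtctcgCACGTCActggaggata
SEC16A (chr9:136484708-136484734, minus strand, 17): gccctggtgcCACGTCAgccggactga
SEC23A (chr14:39103223-39103249, minus strand, -4): cccctcctctTGACGTGgcagaggcgg
SEC24A (chr5:134648596-134648622, plus strand, -179): tgagagtcggTGACGTGgcggcgaggc
MIA3 (chr1:222644292-222644318, plus strand, -27): cagtggctgaTGACGTGttttataggc
COPA (chr1:160343229-160343255, minus strand, 6): agagggtcgcTGACGTGgaggcgtccg
COPB1 (chr11:14499842-14499868, minus strand, -47): cacccccttcCACGTCAgccaaggact
COPB2, first match (chr3:139389826-139389852, minus strand, -162): tcagcggcacCACGTCAcggcccttag
COPB2, other match (chr3:139389633-139389659, minus strand, 32): ccggaagttcCACGTCAgtcagtctga
COPE (chr19:18919375-18919401, minus strand, -4): tgcttccggcTGACGTGtctttcagga
ARF1 (chr1:228082682-228082708, plus strand, -16): ccggaggcgcTGACGTGgccgccgtca
GBF1 (chr10:102245528-102245554, plus strand, 7): ggctagttacCACGTCAgtgagctgac
KDELR3 (chr22:38468041-38468067, plus strand, -45): ccgccctggcCACGTCAccgcccggcc
STX5 (chr11:62832051-62832077, minus strand, -16): tacgtgtaggTGACGTGgccgcttcca

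In the core's own direction, the base after it was G in 11 of the 14 member matches (78.6%) and in 247 of 667 matches of other genes (37.0%). The 13 members with a core had a median log2 change of -0.13, between -0.59 and 0.62, and 1 of them rose (GBF1) and 1 fell (STX5). The 26 members with a promoter and no core had a median of 0.13, and 2 rose and 4 fell. None of the 39 members held the endoplasmic reticulum stress element (ERSE: CCAAT, any 9 bases, CCACG), which ATF6 is known to bind with NF-Y, against 7 of 23 response genes and 25 of 27305 genes. One of those 7 is HSPA5, whose match (chr9:125241381-125241419, minus strand, GRCh38.p14, first capital at -66) is shown for contrast with the element in capitals.
HSPA5: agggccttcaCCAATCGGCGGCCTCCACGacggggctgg
The related form ERSE-II, ATTGG, any 1 base, CCACG was in 0 of 39 members and 3 of 23 response genes. The cyclic AMP response element TGACGTCA was in 0 of 39 members and 2.25% of genes, and the ATF4 motif TGATGCAAT in 0 of 39 members and 0.293% of genes. No match says only that these letters are not in these windows.

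**Figure D3:**
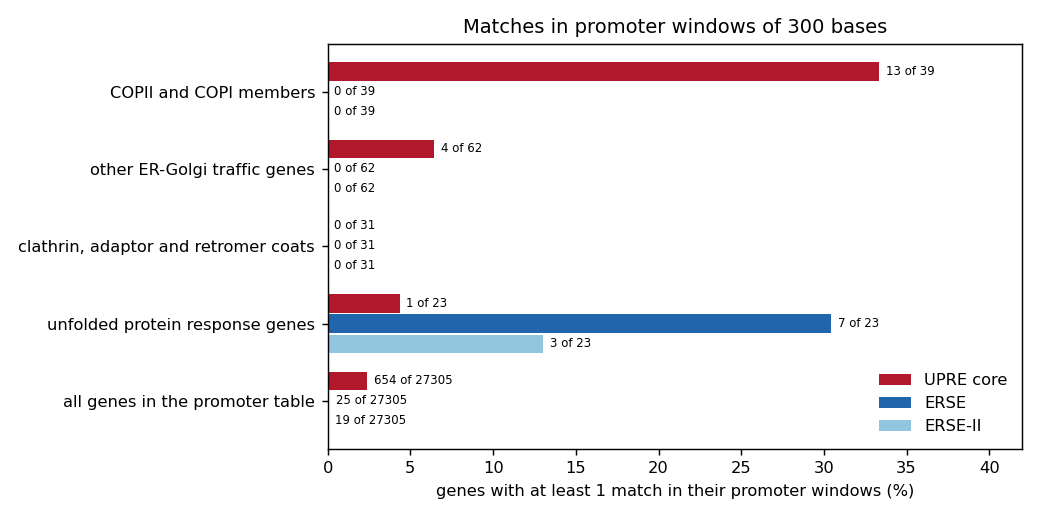
Share of genes in percent whose promoter holds the UPRE core, ERSE or ERSE-II on either strand, in the vesicle traffic members, 3 other lists and all genes with a promoter. The UPRE core reaches 33.3% of the members against 2.40% of all genes, and ERSE is in 30.4% of the response genes and in no member.

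Of the 15 genes of the COPII coat and its assembly, none rose and 1 fell (6.67%, against 25.5% of protein-coding loci), with a median log2 change of -0.06. PREB, also called SEC12, is the membrane protein that loads the GTPase SAR1 and so starts the coat. PREB (chr2:27130756-27134636 in the table) had 38.3, 45.7 and 35.2 CPM in the high glucose libraries, against 58.1, 55.3 and 69.5 CPM in the normal glucose libraries. Every high glucose library lay below every normal glucose library. Its mean was 39.7 ± 5.39 CPM in high glucose and 61.0 ± 7.52 CPM in normal glucose (SD, n = 3 each), a log2 change of -0.62 (SE 0.15), with an edgeR adjusted p of 0.0283. Over the 15 alternatives its adjusted p ran from 0.00356 to 0.108. It was above 0.05 without the first, second or last high glucose library (edgeR adjusted p 0.106, 0.0555 and 0.108) and without the first normal glucose library (0.0626).

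SAR1A and SAR1B, the GTPases that PREB loads, had log2 changes of -0.06 and -0.02 with intervals from -0.86 to 0.74 and from -0.29 to 0.26. SAR1A varied within both groups, with 139.5, 149.7 and 237 CPM in high glucose and 194, 104 and 250.3 CPM in normal glucose. The scaffold SEC16A, which marks the exit sites, had a log2 change of -0.17, TFG, which organises the same sites, one of 0.06, and SEC23IP, which binds SEC23, one of -0.01. None of these genes passed the test. MIA3, or TANGO1, the receptor that exports collagen, had 69.3, 55.6 and 70.6 CPM in high glucose and 96.8, 86.5 and 59.2 CPM in normal glucose. Its value in the third normal glucose library lay among the high glucose ones, and without it MIA3 fell by 0.49 on the log2 scale (edgeR adjusted p 0.0358, against 0.318 with all libraries, and 0.0358 to 0.653 over the alternatives).

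SEC24 is the subunit that reads export signals on cargo, and the cells express its 4 paralogs. SEC24C had 212, 236 and 238 CPM in high glucose and 192, 179 and 183 CPM in normal glucose. SEC24A had 132, 128 and 129.6 CPM in high glucose and 151, 154 and 154 CPM in normal glucose, at a locus it shares with CAMLG. SEC24B had 88.8, 90.1 and 86.5 CPM in high glucose and 97.0, 106 and 105 CPM in normal glucose. The groups did not overlap for any of these 3, with SEC24C higher and SEC24A and SEC24B lower in high glucose, but none passed the test. On the log2 scale they differed by 0.31, -0.24 and -0.22 (adjusted p by edgeR 0.0662, 0.0996 and 0.155). SEC24C passed in 4 of the 15 alternatives (edgeR, DESeq2 or limma adjusted p 0.0359 to 0.213 over all 15) and SEC24A in 2 (0.0460 to 0.283). Per length, SEC24C was the leading form. It made up 50.2%, 53.3% and 54.2% of the summed SEC24 FPKM (the authors' level per locus length and library size) in high glucose and 45.0%, 43.6% and 42.3% in normal glucose. SEC24A made up 15.3% to 16.5% in high glucose and 18.8% to 19.95% in normal glucose. Such shares depend on the locus lengths of the authors' assembly, and the shift in them was not tested beyond the pairs below. SEC24D had 9.94% to 11.7% in high glucose and 9.80% to 13.9% in normal glucose, and these ranges overlapped.

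SEC23A and SEC23B, the inner-coat partners of SEC24, had log2 changes of 0.21 and 0.14 and did not pass. SEC23B held 62.5% to 63.9% of the SEC23 FPKM in high glucose and 63.4% to 66.3% in normal glucose, so the division between the pair overlapped. SEC23A had 183, 184 and 184 CPM in high glucose, against 147, 145 and 184 CPM in normal glucose. Its value in the third normal glucose library equalled the high glucose level, and without that library SEC23A rose by 0.33 (edgeR adjusted p 0.0147, against 0.267 with all libraries, and 0.0147 to 0.496 over the alternatives). SEC13 and SEC31A, which form the outer cage, had log2 changes of -0.13 and 0.13. SEC31A, the COPII member with the highest mean CPM over the 6 libraries, had 210.1, 228 and 212 CPM in high glucose and 181, 193 and 222 CPM in normal glucose, which overlapped.

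**Figure D4:**
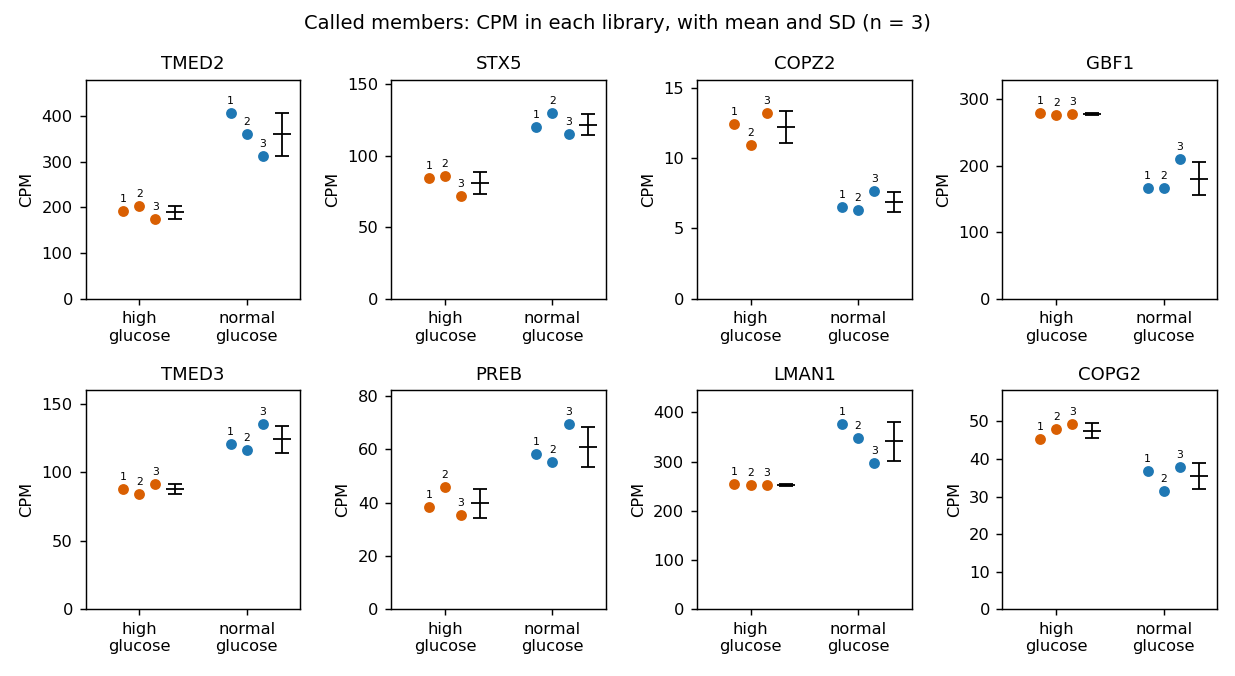
CPM of the 8 called members in each of the 3 high glucose and 3 normal glucose libraries, numbered by replicate, with bars for the mean and the SD. Within each gene the 2 groups do not overlap; TMED2 has 175 to 203 CPM in high glucose and 313 to 406 CPM in normal glucose.

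Of the 12 genes of the COPI coat and its recruitment, 3 rose and none fell, with a median log2 change of 0.12, and 7 had groups that did not overlap. These shares of 25.0% and 58.3% are near those of protein-coding loci (25.5% and 49.5%) and of the abundant ones (28.5% and 52.4%). GBF1 is the exchange factor that loads ARF GTPases at the early Golgi. GBF1 had 279, 277 and 278 CPM in the high glucose libraries, against 167, 166 and 209.5 CPM in the normal glucose libraries. The high glucose libraries lay close together and above all the normal glucose ones, of which the third was the highest. GBF1 averaged 278 ± 1.07 CPM in high glucose and 181 ± 24.9 CPM in normal glucose (SD, n = 3 each), a log2 change of 0.62 (SE 0.12), with an edgeR adjusted p of 0.0154. ARF1 and ARF4, the GTPases it loads, had log2 changes of -0.14 and -0.25 and did not pass. ARF4 had 185, 235 and 206 CPM in high glucose and 263, 239.8 and 243 CPM in normal glucose, lower in high glucose without overlap.

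COPZ2 and COPG2 are the less common forms of the zeta and gamma subunits. COPZ2 had 12.4, 10.95 and 13.2 CPM in the high glucose libraries, against 6.55, 6.33 and 7.68 CPM in the normal glucose libraries. All 3 high glucose values exceeded the normal glucose ones, at low levels. The log2 change of COPZ2 was 0.83 (SE 0.16, 95% interval 0.45 to 1.21), with an edgeR adjusted p of 0.0152. COPG2, whose locus also carries TSGA13, had 45.2, 48.1 and 49.3 CPM in high glucose and 36.9, 31.5 and 37.8 CPM in normal glucose. Its groups did not overlap either, at a log2 change of 0.42 (SE 0.12) with an edgeR adjusted p of 0.0445. The common forms COPZ1 and COPG1 had log2 changes of 0.36 and -0.13 and did not pass. COPZ1 had 128, 129 and 122 CPM in high glucose and 133, 118 and 43.8 CPM in normal glucose, so the third normal glucose library was the lowest of all.

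All 3 COPI calls were lost when any 1 high glucose library was left out. Calls higher over all loci then dropped as well, from 2439 to 819, 730 and 785. None of the 3 COPI calls was lost without the third normal glucose library (edgeR adjusted p 0.00104 for GBF1, 0.00579 for COPZ2 and 0.0221 for COPG2). Without the first, second or last high glucose library the edgeR adjusted p of GBF1 was 0.0650, 0.0685 and 0.0660 (0.000596 to 0.0685 over the 15 alternatives). That of COPZ2 was 0.0675, 0.0531 and 0.0733 (3.62e-05 to 0.0733 over the 15). That of COPG2 was 0.108, 0.145 and 0.147 (0.0157 to 0.147 over the 15), and it was 0.0835 without the first and 0.106 without the second normal glucose library. With no filter on low counts that of COPG2 was 0.0719.

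The larger subunits form the rest of the coat. COPA, the alpha subunit, was the COPI member with the highest mean CPM over the 6 libraries, though not the highest per length. COPA had 317, 305 and 328 CPM in high glucose and 372, 345 and 391 CPM in normal glucose. COPB1, the beta subunit, at a locus with PSMA1, had 285, 289 and 298 CPM in high glucose and 246, 238 and 262 CPM in normal glucose. The groups did not overlap for either gene, with COPA lower and COPB1 higher in high glucose, but neither passed the test. On the log2 scale they differed by -0.22 and 0.23 (adjusted p by edgeR 0.159 and 0.134). ARCN1, the delta subunit, also had groups that did not overlap, at a log2 change of 0.12. COPB2 and COPE, the beta-prime and epsilon subunits, had 0.13 and -0.06. Subunits of 1 complex thus had estimates of opposite sign. Without the third normal glucose library COPB1 rose by 0.27 (edgeR adjusted p 0.0310, and 0.0310 to 0.325 over the alternatives).

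**Figure D5:**
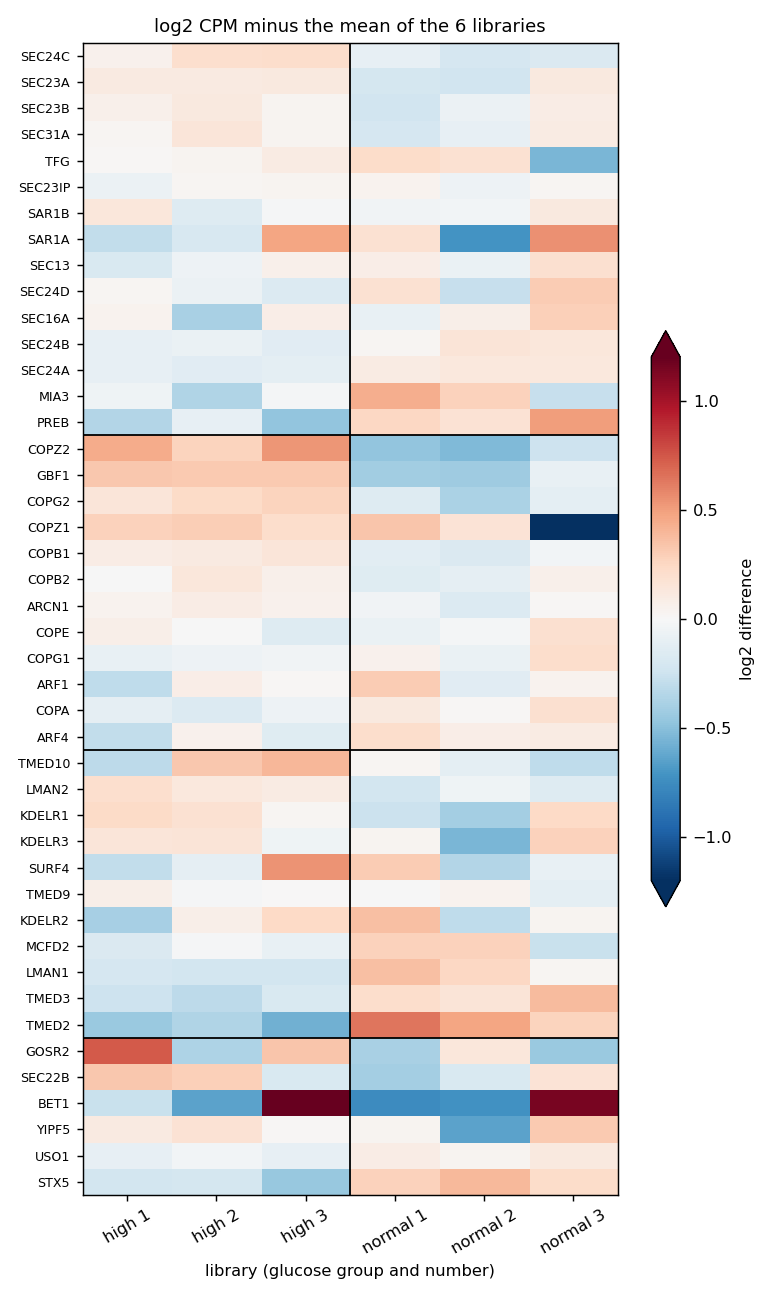
Heat map of the log2 level of each member in each library relative to the mean of the 6 libraries, with members grouped by role, high glucose libraries left and normal glucose libraries right; colours end at 1.2 in either direction. The third normal glucose library differs from the other 2 of its group for COPZ1, BET1, TFG and MIA3 among others.

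Of the 11 cargo receptors and p24 proteins, none rose and 3 fell (27.3%, near the 25.5% of protein-coding loci), with a median log2 change of 0.05. The p24 proteins are small membrane proteins that travel in both kinds of vesicle and help to load cargo such as lipid-anchored proteins. TMED2 (chr12:123584533-123597342 in the table) had 191, 203 and 175 CPM in the high glucose libraries, against 406, 361 and 313 CPM in the normal glucose libraries. The highest high glucose library lay well below the lowest normal glucose one. TMED2 averaged 189.7 ± 14.2 CPM in high glucose and 360.2 ± 46.7 CPM in normal glucose (SD, n = 3 each), and its log2 change was -0.93 (SE 0.13, 95% interval -1.23 to -0.62) with an edgeR adjusted p of 0.00605. TMED2 alone among the 44 was called under each of the 15 alternatives, with adjusted p of 1.42e-07 to 0.0378.

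TMED3 had 87.8, 84.1 and 91.5 CPM in high glucose and 121, 116 and 135 CPM in normal glucose. It was lower in every high glucose library, with a log2 change of -0.50 (SE 0.10) and an edgeR adjusted p of 0.0191. Without the first, second or last high glucose library its adjusted p was 0.0823, 0.0934 and 0.0725 (edgeR; 0.000879 to 0.0934 over the alternatives). TMED10, the partner of TMED2, did not pass. TMED10 had 259, 403 and 426 CPM in high glucose and 329, 298 and 261 CPM in normal glucose, with a log2 change of 0.29. The groups overlapped through the first high glucose library. TMED9 had a log2 change of 0.05 with an interval from -0.18 to 0.27. Per length, TMED2 made up 35.03%, 30.7% and 26.7% of the FPKM summed over TMED2, TMED3, TMED9 and TMED10 in high glucose, and 49.9%, 48.2% and 47.3% in normal glucose. TMED10 made up 36.7%, 47.2% and 50.5% in high glucose and 31.2%, 30.7% and 30.5% in normal glucose. TMED2 thus held the larger share of the pair in each normal glucose library and the smaller in each high glucose library. In the first high glucose library the shares were close, at 35.03% and 36.7%. Which share is the larger depends on the locus lengths of the authors' assembly, and the switch was not tested.

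LMAN1, or ERGIC-53, is a lectin that with its partner MCFD2 carries coagulation factors out of the endoplasmic reticulum. LMAN1 had 255, 252 and 252 CPM in high glucose and 377, 349 and 298 CPM in normal glucose. The 3 high glucose libraries were nearly alike and lay below all the normal glucose ones. Its log2 change was -0.43 (SE 0.11) with an edgeR adjusted p of 0.0403, close to the threshold. The adjusted p of LMAN1 ran from 0.00358 to 0.139 over the 15 alternatives. It was above 0.05 without the first, second or last high glucose library (edgeR adjusted p 0.126, 0.139 and 0.136) and without the first or second normal glucose library (0.103 and 0.0944). It was also above 0.05 with no filter (0.0578), with upper quartile scaling (0.0518) and with limma on FPKM (0.0588 and 0.0573).

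MCFD2, the member with the highest mean CPM, though not the highest per length, had 414, 462 and 438 CPM in high glucose. In normal glucose MCFD2 had 565, 568 and 388 CPM. Its value in the third normal glucose library lay below all high glucose ones, and the log2 change of -0.21 did not pass. Without that library MCFD2 fell by 0.37 (edgeR adjusted p 0.0132, and 0.0132 to 0.710 over the alternatives). LMAN2, or VIP36, a related lectin, had 115, 109 and 107 CPM in high glucose and 85.6, 96.7 and 89.8 CPM in normal glucose. It was higher in high glucose without overlap, at a log2 change of 0.28 that did not pass (edgeR adjusted p 0.0871, and 0.0499 to 0.253 over the alternatives). SURF4, a receptor for soluble cargo, had a log2 change of 0.11 and overlapping groups.

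The KDEL receptors return escaped chaperones, HSPA5 among them, in COPI vesicles. KDELR1, KDELR2 and KDELR3 had log2 changes of 0.26, -0.06 and 0.12, and none passed. KDELR1 had 259.9, 251 and 225 CPM in high glucose and 186, 167 and 261 CPM in normal glucose. Its value in the third normal glucose library exceeded the other 2 and all the high glucose libraries, and without it KDELR1 rose by 0.48 (edgeR adjusted p 0.0143, against 0.345 with all libraries, and 0.0143 to 0.657 over the alternatives). Per length KDELR1 was the leading receptor, with 72.2% to 80.3% of the summed KDEL receptor FPKM in high glucose and 66.4% to 76.2% in normal glucose. KDELR2 shares its locus with DAGLB, and this ranking depends on the locus lengths of the authors' assembly. By counts, KDELR2 over KDELR1 was 0.739, 1.06 and 1.33 in high glucose and 1.76, 1.23 and 0.992 in normal glucose.

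Of the 6 tethers, fusion proteins and membrane organisers, none rose and 1 fell (16.7%, against 25.5% of protein-coding loci), with a median log2 change of 0.16. STX5 is the syntaxin on the Golgi side of fusion. STX5, at a locus with NXF1, had 84.6, 85.6 and 71.9 CPM in the high glucose libraries, against 119.9, 129.7 and 115 CPM in the normal glucose libraries. The groups were separate, at a log2 change of -0.59 (SE 0.11) with an edgeR adjusted p of 0.0148. Without the first, second or last high glucose library its adjusted p was 0.0577, 0.0581 and 0.0693 (edgeR; 0.000232 to 0.0693 over the alternatives). USO1, or p115, the tether that holds vesicles before fusion, had 144, 150.1 and 143 CPM in high glucose and 163, 157 and 166 CPM in normal glucose. It was lower in high glucose without overlap, but its log2 change of -0.15 did not pass (edgeR adjusted p 0.280).

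SEC22B, BET1 and GOSR2 are the SNARE proteins that pair with STX5. SEC22B, with the highest mean CPM of the 6, though not the highest per length, had 245, 239 and 173 CPM in high glucose. In normal glucose SEC22B had 147, 172 and 219 CPM. Its groups overlapped, and the log2 change of 0.29 did not pass. Without the third normal glucose library SEC22B had 0.46 (edgeR adjusted p 0.101). GOSR2 had 65.0, 30.2 and 49.0 CPM in high glucose and 29.8, 42.7 and 28.6 CPM in normal glucose. Its interval from -0.17 to 1.198 was among the widest, and LRRC37A17P is part of its locus. BET1 had 9.72, 7.52 and 27.8 CPM in high glucose and 6.97, 7.07 and 25.8 CPM in normal glucose. In each group the third library was more than 2-fold above the other 2, and a difference by glucose was not detectable for BET1, whose interval ran from -1.40 to 1.75. YIPF5, a membrane protein of the early Golgi, had a log2 change of 0.14 and overlapping groups.

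Partners were then set against each other within libraries, as the ratio of their counts, in 11 pairs. With 3 libraries against 3 the exact 2-sided permutation test cannot go below 0.1, so no pair could pass. COPG2 over COPG1 was 0.260, 0.271 and 0.274 in the high glucose libraries and 0.193, 0.180 and 0.177 in the normal glucose libraries, a ratio of 1.46 between groups (exact p 0.1, adjusted 0.55). LMAN1 over LMAN2 was 2.22, 2.31 and 2.36 in high glucose and 4.40, 3.61 and 3.31 in normal glucose, a ratio of 0.613 between groups (exact p 0.1, adjusted 0.55). In these 2 pairs every high glucose library lay on 1 side of every normal glucose library. In the other 9 pairs the groups overlapped, with exact permutation p from 0.2 to 1. Omission of the third normal glucose library moved the difference most for COPZ2 over COPZ1, where the mean log2 difference was 0.31 with it and 0.90 without it.

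Within groups, the median coefficient of variation of the members was 5.82% in high glucose and 11.2% in normal glucose. For protein-coding loci it was 8.47% in high glucose and 18.2% in normal glucose. The third normal glucose library was above the other 2 of its group for 26 members, below both for 10 and between them for 8. It differed from their mean by 0.5 log2 units or more for 9 members, most for BET1 (1.88) and COPZ1 (-1.52). Without this library 7 members rose and 8 fell, and 39.1% of protein-coding loci were called, 20.8% higher and 18.3% lower. The 7 further calls were SEC23A, SEC24A, SEC24C, MIA3, COPB1, KDELR1 and MCFD2. SEC24C then rose by 0.30 and SEC24A fell by 0.23 (adjusted p by edgeR 0.0436 and 0.0495). What sets the third normal glucose library apart was not tested.

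The rest of the early secretory pathway showed a like mixture. Of 75 other genes of endoplasmic reticulum and Golgi transport, 4 rose and 7 fell (14.7%, against 25.5% of protein-coding loci). Their median log2 change was 0.03, with a range of -1.05 to 1.98. Counts without 1 library ran from 1 to 8 higher and from 2 to 11 lower, with the most of each without the third normal glucose library. NBAS, a subunit of the tether that receives COPI vesicles at the endoplasmic reticulum, had 87.0, 93.2 and 93.3 CPM in high glucose and 163, 155 and 147 CPM in normal glucose (log2 change -0.77, edgeR adjusted p 0.00463). TRAPPC10, a subunit of a Golgi tethering complex, had 80.4, 78.6 and 76.2 CPM in high glucose and 114, 133 and 130.2 CPM in normal glucose (-0.68, edgeR adjusted p 0.00759). Both were lower in every high glucose library. SEC22A, whose locus includes PDIA5, rose by 0.96 (edgeR adjusted p 0.0101). NBAS, TRAPPC10 and SEC22A stayed called under each of the 15 alternatives, with a highest adjusted p of 0.0337, 0.0483 and 0.0486. YIPF4, a Golgi membrane protein, fell by 1.05 (edgeR adjusted p 0.0160, and 0.000117 to 0.0723 over the alternatives). It was above 0.05 without each library other than the third of normal glucose (edgeR adjusted p 0.0672, 0.0723 and 0.0524 without the high glucose libraries, 0.0534 and 0.0516 without the first and second of normal glucose).

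Coats of later compartments gave 7 genes that rose and 3 that fell of 37 (27.0%, near the 25.5% of protein-coding loci), with a median of 0.06. Without 1 library the counts ran from 1 to 11 higher and from 0 to 7 lower, with the most of each without the third normal glucose library and the fewest lower without the second or last high glucose library. AP1M1 and AP2S1, adaptor subunits for clathrin at the Golgi and at the cell surface, rose by 0.84 and 0.79 (edgeR adjusted p 0.0148 and 0.0168). AP1G2, at a locus with JPH4, and AP5Z1, subunits of other adaptor complexes, fell by 0.71 and 0.75 (edgeR adjusted p 0.0109 and 0.0117). Each of these 4 lost its call without 1 or more libraries. The adjusted p of AP1M1 was 0.0525 without the first normal glucose library (edgeR; 0.00023 to 0.0525 over the alternatives). That of AP2S1 was above 0.05 without each library but the third of normal glucose (0.000551 to 0.0706). That of AP1G2 was above it without each high glucose library (2.7e-05 to 0.0585), and that of AP5Z1 without the second and last of them (5.42e-05 to 0.0615).

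Of the transcription factors known to act on secretory genes, 1 rose and 3 fell. The list had 12, of which 11 were tested and CREB3L3 was not. Those called are 36.4% of those tested, against 25.5% of protein-coding loci. XBP1, which also belongs to the response list, had 83.0, 45.8 and 47.7 CPM in high glucose and 252, 269 and 107 CPM in normal glucose. It fell by 1.83 on the log2 scale (edgeR adjusted p 0.0205), without overlap. That p was 0.0852 and 0.0851 without the second and last high glucose library and 0.0645 and 0.0627 without the first and second normal glucose library (edgeR; 2.83e-05 to 0.0852 over the alternatives). ATF4 and DDIT3, also of that list, fell by 1.09 and 4.33 (edgeR adjusted p 0.00610 and 0.0148). ATF4 was called under each alternative (highest adjusted p 0.0367). DDIT3, whose locus also holds a clone-named gene, was above 0.05 without the first, second and last high glucose library (edgeR adjusted p 0.0623, 0.0639 and 0.0687, and 1.94e-05 to 0.0687 over the alternatives). CREB3, a membrane-bound factor of the Golgi route, had 86.3, 84.1 and 84.6 CPM in high glucose and 61.2, 70.6 and 64.8 CPM in normal glucose. It rose by 0.38 (edgeR adjusted p 0.0404), but was above 0.05 without any 1 library except the third of normal glucose and with no filter (0.0129 to 0.136 over the alternatives). ATF6 had 167, 171 and 179 CPM in high glucose and 295, 262 and 192 CPM in normal glucose. ATF6 was lower in every high glucose library, with a log2 change of -0.53 that did not pass (edgeR adjusted p 0.0598, and 0.00252 to 0.173 over the alternatives, the lowest without the third normal glucose library). TFE3 had -0.39 (edgeR adjusted p 0.0504, and 0.00761 to 0.162 over the alternatives), and CREB3L4, CREB3L2, CREB3L1, BHLHA15 and ATF6B had 0.43, -0.22, -0.16, -0.01 and 0.00, none called.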

How the data were processed

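RNA of ARPE-19 cells was measured in 6 libraries, 3 per group. The deposited table gives a whole-number count and an FPKM value per locus and library, per the file headers. Counts were not normalized by the authors, and the deposited FPKM is scaled to locus length and library size. The labels' protocol names oligo-dT beads, and also fractions without poly(A) and adipose tissue, so the RNA selection is not settled. Per the submitters' processing notes, Bowtie 0.12.2 was used with mm8, a mouse build, whereas the table's names are human, and the coordinates of 44 of 44 members overlap their gene in GRCh38.p14. The table names no build, and its counting program is not stated by any source used here. Nothing states that strand was used, so antisense reads may be included. Counts of 4 (9555 values) were more frequent than 3 (4210) or 5 (2659). A fragment may thus stand for about 4 counts, in which case the counts overstate the depth and its precision by about that factor. All 37 mitochondrial loci are listed at 0.

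Loci passing filterByExpr were tested with edgeR 4.0.16 (TMM, glmQLFit, glmQLFTest, 2-sided) in R 4.3.3. CPM are TMM-scaled. The SE is the estimate's size over the square root of F. The edgeR step was tested on simulated data. There both groups had the same variation between libraries at each locus and no library stood apart, unlike in these data. Alternatives were DESeq2 1.42.0, other scalings, no filter, counts divided by 4, a replicate block, limma 3.58.1 on log2(FPKM + 1) and log2(FPKM + 0.1), voom with group weights, and each library left out. Pair ratios used counts plus 0.5.

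Members, lists and motifs were chosen with earlier results of these data known. All members could be named, with values in every library for called members and the member of each role with the highest mean CPM. Further per-library values were chosen after they were seen. From other lists, up to 4 called genes with the smallest adjusted p were named, all transcription factors, and HSPA5. 10 members share a locus with another name, and the loci of SEC31A, SAR1A, COPE and ARF1 hold THAP9-AS1, TYSND1, HOMER3 and MIR3620. Their reads cannot be told apart here.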

Additional observations from a re-analysis of the deposited data

How the results depend on the processing

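Over 959 combinations of a named gene and an alternative, 831 kept direction and side of the threshold, 69 lost the call, 22 gained one and 37 reversed in sign. For the 8 called members, 35 of 120 lost it. Same-numbered libraries share only a number (correlations of their deviations -0.017, -0.0008 and -0.009), so they were not taken as pairs. With the replicate block the counts higher and lower were 1312 and 1233 of all loci (2439 and 2467 without), 2 and 2 of the members (3 and 5), 2 and 3 of the other transport genes (4 and 7), and 3 higher of the clathrin list (7). With it the adjusted p (edgeR) was above 0.05 for COPG2 (0.108), LMAN1 (0.0963), PREB (0.0824) and TMED3 (0.0585), and for CREB3 (0.114) and YIPF4 (0.0533). DESeq2 gave 11 and 11 other transport genes, and limma on FPKM 5 higher members at either pseudocount. SEC23IP turned to 0.00466 with upper quartile scaling. With limma at the larger and smaller pseudocount it turned to 0.0306 and 0.0339, SAR1A to 0.0252 and 0.0316, SAR1B to 0.0173 and 0.0199, and at the larger BHLHA15 to 0.00280. ATF6B turned to -0.00554 with RLE scaling and DESeq2 and -0.00766 with counts divided by 4.

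Leaving out each library in turn gave 730 to 3932 loci higher and 691 to 3683 lower, 0 to 7 and 1 to 8 members, 1 to 8 and 2 to 11 other transport genes, 1 to 11 and 0 to 7 clathrin genes, and 2 to 26 response genes lower. Ranges that crossed 0 were -0.0366 to 0.0281 for SEC23IP, -0.34 to 0.24 for SAR1A, -0.0909 to 0.0525 for SAR1B, -0.15 to 0.18 for TFG, -0.117 to 0.0288 for COPE, -0.21 to 0.12 for KDELR2, -0.0755 to 0.32 for KDELR3, -0.18 to 0.31 for SURF4, -0.62 to 1.10 for BET1, -0.0795 to 0.37 for YIPF5, -0.0541 to 0.0398 for ATF6B, -0.38 to 0.35 for BHLHA15, and, for pairs, -0.00797 to 0.0467 for SEC24B over SEC24A, -0.23 to 0.33 for SAR1B over SAR1A and -0.00870 to 0.90 for COPZ2 over COPZ1. No single gene named for such a range was called. The cause was not tested.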
